A study of Mus musculus with 6 samples.

Results

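The genes described here were 29 genes of cholesterol and fatty acid synthesis, measured in mouse BMSCs, the adherent stromal cells that the study cultured from bone marrow. They were picked by name as genes of the pathway. All 29 were among the 25722 genes listed for each library, and all 29 were among the 13842 genes that passed the expression filter and were tested. By role, 7 encode enzymes or an upstream thiolase of the mevalonate steps (Acat2, Hmgcs1, Mvk, Pmvk, Mvd, Idi1 and Fdps). A further 11 encode enzymes from squalene to cholesterol (Fdft1, Sqle, Lss, Cyp51, Tm7sf2, Msmo1, Nsdhl, Hsd17b7, Ebp, Sc5d and Dhcr7). The remaining members were 4 regulators of the pathway (Srebf1, Srebf2, Scap and Insig1), 1 sterol carrier (Stard4) and 6 enzymes of fatty acid synthesis (Acly, Acaca, Fasn, Elovl6, Scd1 and Scd2).

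Cells make cholesterol from acetyl-CoA by way of mevalonate, farnesyl diphosphate, squalene and lanosterol, and they make fatty acids from acetyl-CoA by way of malonyl-CoA. Both routes are under the control of the SREBP transcription factors, which are made as precursors in the membrane of the endoplasmic reticulum. When sterols are scarce, the escort protein Scap carries the precursors to the Golgi apparatus, where they are cut and released to the nucleus, and when sterols are plentiful the Insig proteins hold Scap back. Insig1 is itself a target of the SREBPs, which closes a feedback loop.

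RNA sequencing compared 3 control libraries (DMSO1, DMSO2 and DMSO3), from BMSCs given the solvent DMSO, with 3 libraries (ATRA1, ATRA2 and ATRA3) from BMSCs given all-trans retinoic acid (RA), the vitamin A derivative that activates the retinoic acid receptors. The question was which genes differ after RA. Per the labels, RA was given at 1 µM and both treatments lasted 48 h, although the study's methods give a lower dose and a shorter time. All 6 libraries came from wild-type C57BL/6 mice, whose age was not given in the sources used here, and both groups shared medium with 20% serum, 10 µM of a ROCK inhibitor and 5% oxygen. The labels speak of 2 biological replicates while 3 libraries a group were analysed, and they do not say whether libraries of a group came from separate mice or cultures, so that p-values measure only the spread between these libraries. Cells were used within few passages, with no sort for stromal cells in the methods.

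The libraries held between 14737636 and 18511905 counts. Values are given as CPM, in which each count is divided by its library's TMM-scaled size, and the members took between 0.186% and 0.203% of the counts. The labels were checked with retinoid response genes, of which Cyp26b1 and Cd38 were called, and the summed CPM of 12 such genes was 232.6 to 256.1 in control libraries and 564.7 to 621.4 after RA. A principal component analysis was run on the 1000 genes of highest variance, with the members left out. Its first component, with 57.2% of the variance, did not follow treatment, and later components are not described here. The first component parted DMSO2, ATRA1 and ATRA2 (library set 1) from DMSO1, DMSO3 and ATRA3 (library set 2). The labels name no batch, so some comparisons are also given within the sets, where set 1 has 1 control library and set 2 has 1 RA library. The 12 stromal markers summed to between 1688 and 4434 CPM, with Col1a1 at 414 to 1648 CPM, while Thy1 stayed at or below 0.490 CPM and Nt5e at or below 1.12 CPM. The macrophage markers, 14 in number, summed to between 19335 and 21587 CPM, so the libraries labelled as stromal cells also held much RNA of macrophage genes. In such bulk RNA, fewer cells of a type and less RNA per cell cannot be told apart.

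Promoter sequence was not used in the choice by name. The members were picked as SREBP-driven genes, however, so their motif shares are not independent of that choice. The shares over tested genes were not matched for expression. RefSeq windows (GRCm38.p6) of 250 bases before the transcript start were at hand for 23 of the 29 members and were searched on both strands for 4 motifs, none of which contains another. A gene with several windows was counted where any of them held the motif. CCAAT, whose other strand reads ATTGG, is bound by NF-Y, a factor known to act together with the SREBPs. It lay in 18 of the 23 members (78.3%), in 40.5% of the 10094 tested genes with a window and in 33.8% of all 32851 windows. The E-box CACGTG, which reads the same on both strands and is bound by SREBPs among other factors, lay in 5 members (21.7%), against 9.98% of tested genes and 6.02% of all windows. These 5 were Hsd17b7, Sc5d, Dhcr7, Scap and Insig1. The sterol regulatory element TCACNCCAC lay in Hmgcs1 alone among these 23 members (4.35%), against 1.2% of tested genes and 1.05% of all windows, and GGGCGG, which is bound by Sp1, in 19 members (82.6%), against 63.5% and 32.7%. A match is a run of letters and not a shown binding site. The Acly, Acaca, Elovl6, Acat2 and Scap windows held no CCAAT. Windows for Fdps, Fdft1, Sqle, Stard4, Scd1 and Scd2 were not analysed here.

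Promoters of 4 members are printed as examples of the motifs beside differences between libraries given further on. Insig1 had the widest range over the libraries, Mvd and Hmgcs1 were lower in set 1, and Hsd17b7 was higher there. They are not a ranking, since Dhcr7 differed more than Hmgcs1 or Hsd17b7. Sequences are from RefSeq (GRCm38.p6), 5′ to 3′ along the gene, and each ends before the first start that RefSeq or GENCODE gives for the gene. Capitals mark the CCAAT motif on either strand, the E-box CACGTG and the sterol regulatory element. They lie at chr5:28071162-28071362, plus strand (Insig1), chr13:119690101-119690350, plus strand (Hmgcs1), chr8:122443423-122443672, minus strand (Mvd) and chr1:169969242-169969455, minus strand (Hsd17b7).
Insig1: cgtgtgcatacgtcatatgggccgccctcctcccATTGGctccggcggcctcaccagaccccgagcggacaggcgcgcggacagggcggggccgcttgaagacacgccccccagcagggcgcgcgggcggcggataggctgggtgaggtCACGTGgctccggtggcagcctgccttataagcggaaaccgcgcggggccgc
Hmgcs1: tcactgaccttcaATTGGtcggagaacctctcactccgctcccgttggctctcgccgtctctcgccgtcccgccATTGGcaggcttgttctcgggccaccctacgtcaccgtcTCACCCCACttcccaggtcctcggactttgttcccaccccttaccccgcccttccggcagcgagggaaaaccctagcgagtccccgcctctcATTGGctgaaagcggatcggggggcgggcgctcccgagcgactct
Mvd: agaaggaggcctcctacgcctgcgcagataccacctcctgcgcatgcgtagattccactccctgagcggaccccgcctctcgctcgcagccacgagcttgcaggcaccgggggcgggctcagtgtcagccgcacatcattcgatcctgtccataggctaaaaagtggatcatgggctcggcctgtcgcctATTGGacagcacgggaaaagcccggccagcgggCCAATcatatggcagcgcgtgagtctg
Hsd17b7: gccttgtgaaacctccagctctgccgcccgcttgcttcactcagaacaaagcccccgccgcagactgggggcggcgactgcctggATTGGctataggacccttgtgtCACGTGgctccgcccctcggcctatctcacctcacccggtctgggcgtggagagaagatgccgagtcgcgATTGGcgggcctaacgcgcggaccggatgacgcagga
Insig1 held 1 CCAAT and, nearer to its start, 1 CACGTG. Hmgcs1, which encodes the synthase that forms HMG-CoA, held 3 CCAAT and the only TCACNCCAC of the 23 members searched. Mvd held 2 CCAAT on opposite strands and neither of the other marked motifs. In Hsd17b7 the printed stretch held 2 of the 3 CCAAT of its window and 1 CACGTG.

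Members were expressed well above the middle of the tested genes, with a median percentile of mean expression of 70.7, and the lowest count of any member in a library was 53, for Elovl6 in ATRA3. Their summed CPM was 1958, 1998 and 2020 in DMSO1, DMSO2 and DMSO3 and 1898, 1813 and 2043 in ATRA1, ATRA2 and ATRA3, so that the groups overlapped. Levels between genes were compared per kilobase of merged exons. On that scale Acly, the enzyme that splits citrate into acetyl-CoA in the cytosol, was highest, with a mean over libraries of 44.2 CPM per kb. Srebf2 followed with 29, Insig1 with 26.1 and Scd2 with 23.7 CPM per kb, and the ranges over libraries of the last 3 overlapped (21.2 to 32.3, 15.6 to 42.5 and 17.5 to 34.2). Acly, at 43.2 to 46.4 CPM per kb, lay above Insig1, whose highest library reached 42.5. Hmgcs1, Srebf1, Mvd and Fasn lay close together at 18.9, 18.1, 18.0 and 17.9 CPM per kb. The lowest were Tm7sf2 with 2.76 and Elovl6 with 0.87 CPM per kb.

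Between libraries the members spanned narrower ranges than tested genes did at the median, at expression levels that were higher. The median difference between a gene's highest and lowest library was 0.56 on the log2 scale for the members and 0.73 for all tested genes. The highest library was over 1.5 times the lowest for 13 of 29 members (44.8%) and for 62.2% of tested genes, and over 2 times for 3 members (10.3%) and 32.6% of tested genes. These 3 were Insig1 (2.71 times), Scd1 (2.36 times) and Mvd (2.16 times). The narrowest range was that of Acly, whose highest library was 1.07 times the lowest.

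**Figure D1:**
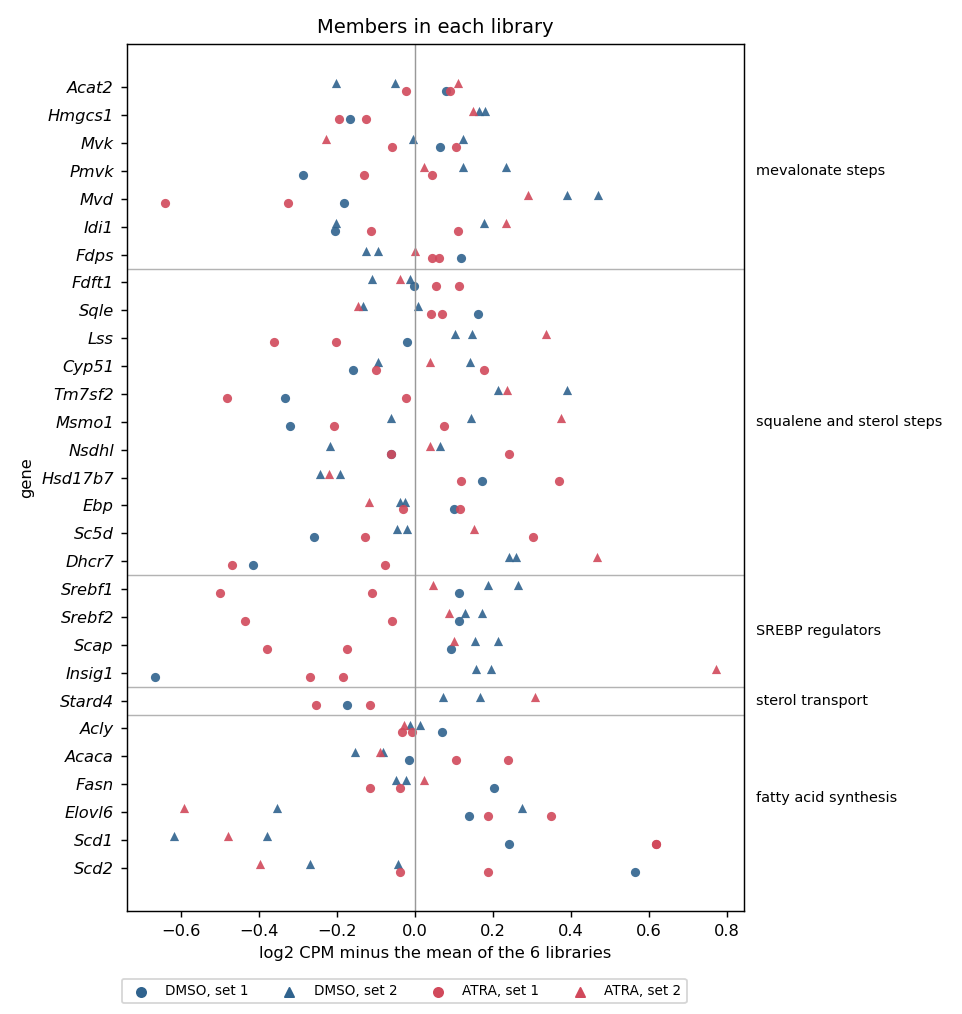
Each point is a member's log2 CPM in a library minus that gene's mean over the 6 libraries (horizontal axis), with genes by role on the vertical axis, control libraries in blue, RA libraries in red, set 1 as circles and set 2 as triangles. Srebf1 and Srebf2 are the members whose red points all lie left of the blue ones, and Insig1 spans the widest range, 2.71 times from its lowest to its highest library.

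After RA, 0 of the 29 members were called, where a call needed a shift of 1.5-fold or more and an adjusted p below 0.05 (edgeR's quasi-likelihood test, Benjamini-Hochberg adjustment over all tested genes). The background was 0.0433%, or 6 genes, of which 5 rose (0.0361%) and 1 fell (0.00722%), and with library size scaling 6 rose and 0 fell. At an unadjusted p under 0.05 the count was also 0 of 29 members, against 5.25% of tested genes (2.89% higher and 2.36% lower), and DESeq2 called 0 members and 0.983% of genes. The smallest member p was 0.0592, for Srebf1 (edgeR adjusted p = 0.795). The median log2 fold change was -0.03 over the members and -0.02 over all tested genes, and the members ran from -0.43 for Mvd to 0.54 for Scd1. Of the members, 12 had a fold change above 0 and 17 below, and 5 of those below changed sign when counts were scaled by library size alone (Sqle, Ebp, Dhcr7, Stard4 and Elovl6). By role, median log2 fold changes were -0.06 for the mevalonate steps, 0.07 for the squalene and sterol steps, -0.27 for the regulators and -0.03 for fatty acid synthesis.

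How large a change these libraries could still hold is shown by the intervals. The 95% interval of the fold change lay within 1.5-fold in either direction for 16 of 29 members (55.2%) and for 33.8% of tested genes, and within 2-fold for 26 members (89.7%) and 67% of genes. These shares were not matched for expression, which was higher in the members (median percentile 70.7). The members whose interval reached beyond 2-fold were Mvd (-1.10 to 0.25), Insig1 (-0.60 to 1.08) and Scd1 (-0.30 to 1.38), all on the log2 scale. In 2 of 29 members (6.9%) the 3 RA libraries did not overlap the 3 control libraries, against 12.6% of tested genes. Both were lower after RA (6.87% of tested genes), and 0 members were higher in all RA libraries (5.71%). Within both library sets, 10 members were higher after RA and 9 were lower, against 30.9% and 35% of tested genes, so that 65.5% of members and 65.9% of genes kept their direction in both sets. An exact permutation test of 3 against 3 libraries cannot go below 0.1 (two-sided).

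**Figure D2:**
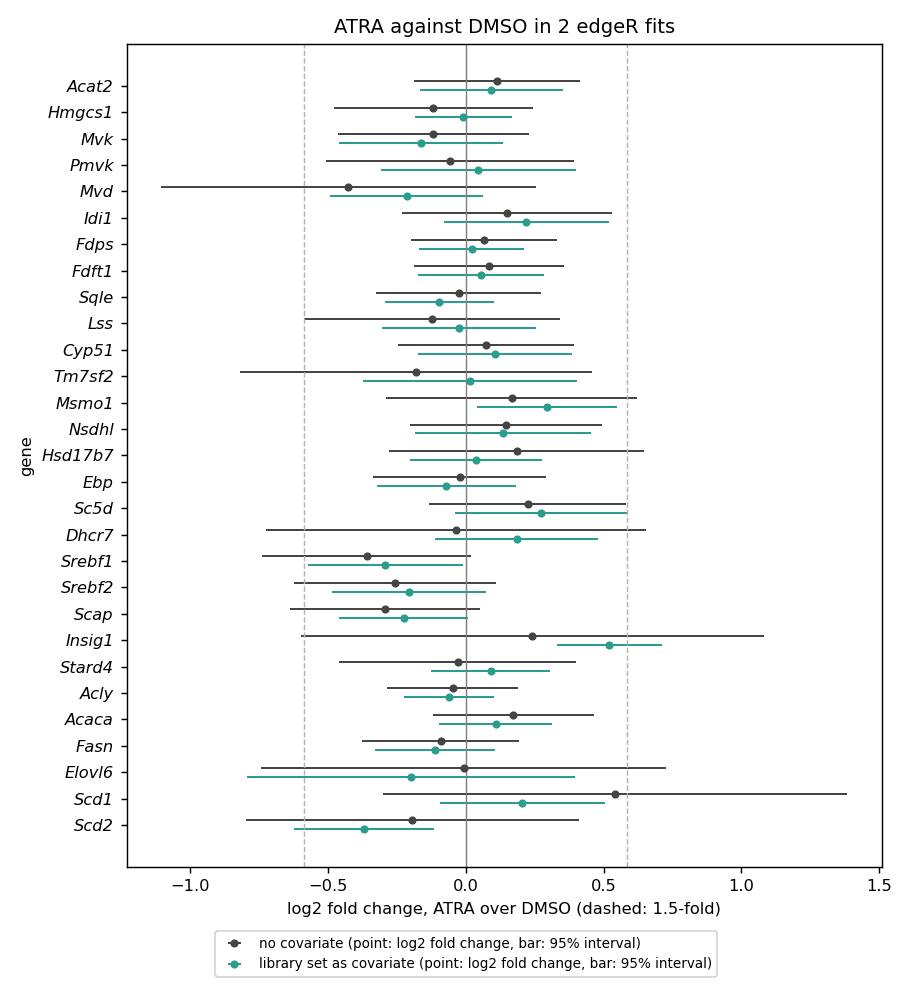
Points are log2 fold changes of RA over control (horizontal axis) and bars their 95% intervals for each member (vertical axis), from the edgeR fit without a covariate (dark) and the one with a term for the library set (green); dashed lines mark 1.5-fold. Intervals without the covariate include 0 for every member, and with it those of Insig1 (0.33 to 0.71), Msmo1 (0.04 to 0.55), Srebf1 (-0.57 to -0.011) and Scd2 (-0.62 to -0.12) do not.

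Among the regulators, Srebf1 and Srebf2 were the 2 members without overlap between treatments, Scap overlapped and Insig1 had a fold change above 0. Srebf1 (chromosome 11 from 60199089 to 60222581, GRCm38), which encodes the SREBP forms best known for lipogenic genes, lay at 121, 109 and 115 CPM in DMSO1, DMSO2 and DMSO3 and at 93.4, 71.3 and 104 CPM in ATRA1, ATRA2 and ATRA3. Every RA library was below every control library, with ATRA2 lowest and ATRA3 nearest to the controls. Means were 115 ± 6.06 and 89.6 ± 16.7 CPM (SD, n = 3 each), and the log2 fold change was -0.36 (standard error 0.16, edgeR unadjusted p = 0.0592). It was -0.42 within set 1 and -0.18 within set 2, and -0.22 without ATRA2. Srebf2 (chromosome 15 from 82147181 to 82205379), which encodes the SREBP best known for cholesterol genes, lay at 232, 223 and 225 CPM in the control libraries and at 198, 152 and 219 CPM in the RA libraries. Again all RA libraries were below the controls, ATRA3 by the least and ATRA2 by the most. The log2 fold change of Srebf2 was -0.26 (standard error 0.15, edgeR unadjusted p = 0.14), with -0.36 within set 1 and -0.06 within set 2. Without ATRA2 it was -0.12.

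Scap (chromosome 9 from 110333288 to 110384950) lay at 104, 95.9 and 100 CPM in the control libraries and at 79.8, 69.1 and 96.4 CPM in the RA libraries, so that ATRA3 overlapped the controls. Its log2 fold change was -0.29 (standard error 0.14, edgeR unadjusted p = 0.085), and -0.18 without ATRA2. In Srebf1, Srebf2 and Scap alike, ATRA2 was the lowest library and DMSO1 the highest. Insig1 (chromosome 5 from 28071363 to 28078662) differed from these 3. It lay at 88.0, 48.4 and 85.8 CPM in the control libraries and at 67.6, 63.8 and 131 CPM in the RA libraries. ATRA3 was the highest library and DMSO2 the lowest, and the groups overlapped, with means of 74.1 ± 22.3 and 87.6 ± 37.9 CPM (SD, n = 3 each). Its log2 fold change was 0.24 (standard error 0.35, edgeR unadjusted p = 0.514), but -0.17 without ATRA3 and 0.024 without DMSO2. Compared within the sets, Insig1 was higher after RA in both, by 0.44 in set 1 and by 0.59 in set 2 on the log2 scale.

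When the library set entered the edgeR fit as a covariate, less spread was left and the fit called 213 genes (1.54%), but 0 members. By the adjusted p alone, 241 genes (1.74%) passed, among them Insig1 as the only member. Its log2 fold change in that fit was 0.52 (95% interval 0.33 to 0.71, edgeR adjusted p = 0.0269), which is under 1.5-fold. DESeq2 with the same covariate gave 0.53 (adjusted p = 0.000132). In edgeR refits with a library left out, the adjusted p varied, while the log2 fold change stayed between 0.44 and 0.61. Each refit had fewer libraries, so a larger adjusted p alone does not show dependence on the library left out. Without DMSO2 or ATRA3, 1 set held only 1 treatment, so the estimate rested on the other set. Leaving out DMSO1, DMSO2, DMSO3, ATRA1 or ATRA3 in turn gave 0.52, 0.61, 0.50, 0.54 and 0.44 (edgeR adjusted p = 0.18, 0.177, 0.157, 0.0508 and 0.216). Without ATRA2 it was 0.55 (edgeR adjusted p = 0.00086). At an unadjusted p under 0.05 the covariate fit held 4 members, against 15.1% of tested genes (6.7% higher and 8.44% lower). Besides Insig1, these were Msmo1, Scd2 and Srebf1, with log2 fold changes of 0.30, -0.37 and -0.29 (edgeR unadjusted p = 0.0288, 0.0103 and 0.0433). The sets were taken from the same libraries, so these p-values depend on that split. All 29 members had a 95% interval within 2-fold in this fit (80.1% of tested genes) and 25 within 1.5-fold (86.2%, against 56%). These shares too were not matched for expression.

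**Figure D3:**
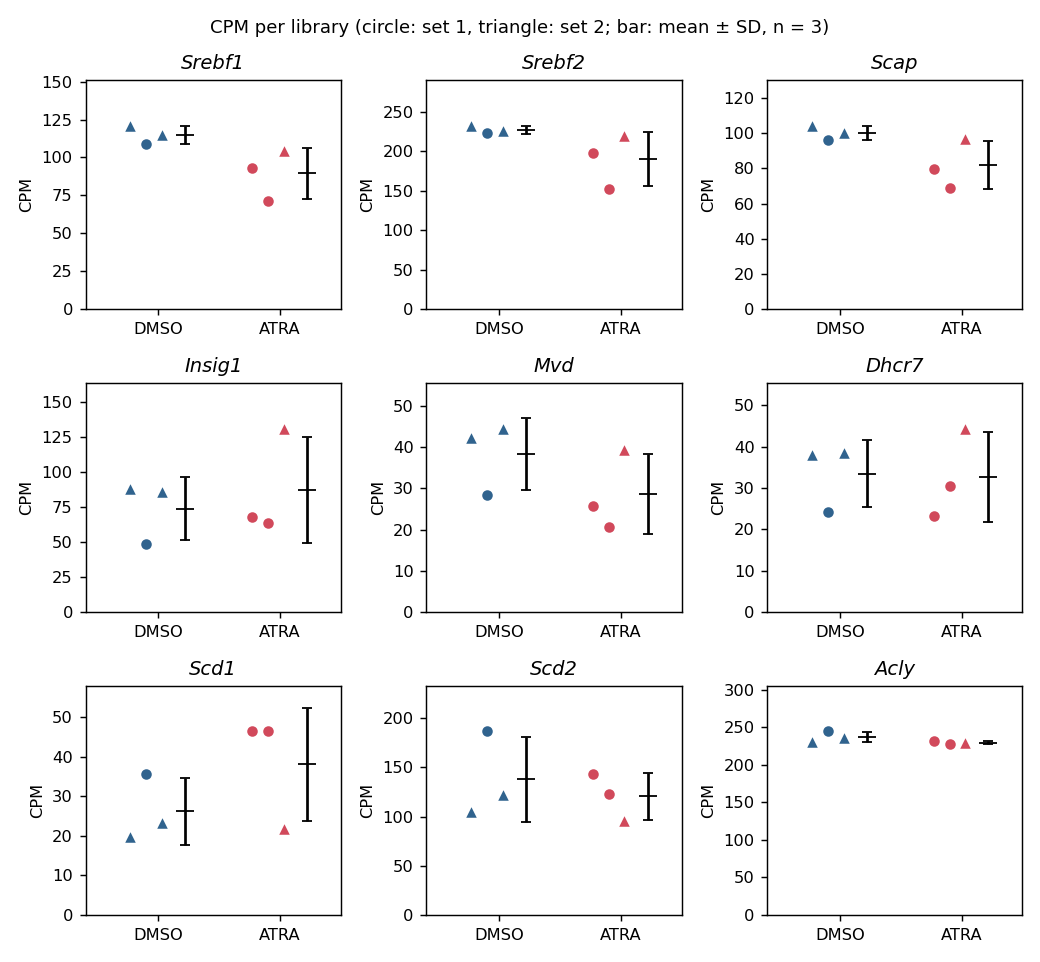
CPM of 9 members in each library (vertical axes, starting at 0), control libraries in blue, RA libraries in red, set 1 as circles and set 2 as triangles, with the mean ± SD of each group (n = 3) as a bar. Srebf1, Srebf2 and Scap are lowest in ATRA2, Insig1 is highest in ATRA3 at 131 CPM, and Acly keeps to between 228 and 245 CPM.

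In the mevalonate steps the largest difference was that of Mvd, the decarboxylase that forms isopentenyl diphosphate. Mvd (chromosome 8 from 122433601 to 122443422) lay at 42.2, 28.3 and 44.6 CPM in DMSO1, DMSO2 and DMSO3 and at 25.7, 20.6 and 39.4 CPM in ATRA1, ATRA2 and ATRA3. DMSO2 lay among the RA libraries and ATRA3 near the other controls, so the groups overlapped. The log2 fold change of Mvd was -0.43 (standard error 0.28, edgeR unadjusted p = 0.18), and -0.30 within set 1 and -0.14 within set 2. Leaving out each library moved it between -0.24 (without ATRA2) and -0.73 (without ATRA3). Hmgcs1 lay at 96.6, 76.8 and 97.7 CPM in the control libraries and at 75.3, 79.1 and 95.6 CPM in the RA libraries. Here too the sets and not the treatments were apart, with set 1 at 75.3 to 79.1 and set 2 at 95.6 to 97.7 CPM. The log2 fold change of Hmgcs1 was -0.12, with a range from -0.23 (without ATRA3) to -0.026 (without ATRA1). The other members of these steps had log2 fold changes between -0.12 for Mvk, the mevalonate kinase, and 0.15 for Idi1, the isomerase of isopentenyl diphosphate. With each library left out, Mvk ranged from -0.18 (without ATRA1) to -0.038 (without ATRA3) and Idi1 from 0.066 (without ATRA3) to 0.29 (without DMSO3). Fdps, the farnesyl diphosphate synthase, lay between 62.4 and 73.8 CPM over all libraries.

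In the squalene and sterol steps, log2 fold changes ran from -0.18 for Tm7sf2, a sterol reductase, to 0.22 for Sc5d, a sterol desaturase. Leaving out each library moved Tm7sf2 between -0.35 (without ATRA3) and -0.0067 (without ATRA2), and Sc5d between 0.12 (without ATRA2) and 0.36 (without ATRA1). Msmo1, the methylsterol monooxygenase, lay at 65.1, 54.4 and 75.0 CPM in the control libraries and at 58.8, 71.5 and 88.1 CPM in the RA libraries. The groups overlapped, although within each set the RA mean was above the control mean, by 0.25 in set 1 and by 0.33 in set 2 (log2 scale). Dhcr7, the reductase of the last steps of one branch, lay at 38.0, 24.1 and 38.4 CPM in the control libraries and at 23.2, 30.4 and 44.4 CPM in the RA libraries. Its log2 fold change was -0.04 and turned to 0.0052 with library size scaling. Within the sets, however, Dhcr7 was higher after RA, by 0.14 in set 1 and by 0.22 in set 2 (log2 scale). Hsd17b7, which reduces a sterol ketone, lay at 36.6, 48.9 and 38.0 CPM in the control libraries and at 56.0, 47.1 and 37.3 CPM in the RA libraries. ATRA3 was level with the lower controls and DMSO2 with the higher RA libraries. Squalene synthase (Fdft1) and squalene epoxidase (Sqle) had log2 fold changes of 0.09 and -0.03. Fdft1 shares exon bases on the opposite strand with Ctsb, which had 54317 to 97315 counts a library, and Tm7sf2 shares exon bases on its own strand with Vps51 (643 to 1122 counts). The strand setting of the counting was not given in the sources used here, so reads of such pairs cannot be told apart. In all, 8 members overlapped another gene's exons, among them Srebf1 with Rai1 (357 to 782 counts) and Cyp51 with Akap9 (924 to 1485 counts).

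Stard4, the sterol carrier, lay at 59.8, 50.4 and 63.8 CPM in the control libraries and at 52.5, 47.7 and 70.4 CPM in the RA libraries. The library sets were again apart, and the log2 fold change was -0.03 (0.012 with library size scaling).

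Among the genes of fatty acid synthesis, Acly was the steadiest member, at 231, 245 and 235 CPM in the control libraries and 232, 228 and 229 CPM in the RA libraries. Its log2 fold change was -0.05 with a 95% interval from -0.28 to 0.19. Fasn, the fatty acid synthase, lay between 180 and 225 CPM with a log2 fold change of -0.09, and Acaca, which makes malonyl-CoA, between 66.5 and 87.2 CPM with one of 0.17. Leaving out each library moved Acaca between 0.094 (without ATRA2) and 0.25 (without ATRA3). The stearoyl-CoA desaturases, which turn saturated into monounsaturated fatty acids, were the most variable of this group. Scd1 (chromosome 19 from 44394455 to 44407879) lay at 19.7, 35.7 and 23.2 CPM in the control libraries and at 46.5, 46.5 and 21.7 CPM in the RA libraries. ATRA1 and ATRA2 were highest while ATRA3 stood among the controls, and the log2 fold change was 0.54 (standard error 0.35, edgeR unadjusted p = 0.17). Within set 1 it was 0.38 and within set 2 it was 0.021, and leaving out each library gave 0.37 (without DMSO1) to 0.85 (without DMSO2). Scd2 (chromosome 19 from 44293674 to 44306864) lay at 105, 187 and 122 CPM in the control libraries and at 144, 123 and 95.7 CPM in the RA libraries. DMSO2 was highest and ATRA3 lowest, and the groups overlapped. The pooled log2 fold change of Scd2 was -0.19 (0.10 without DMSO2), and it was -0.49 within set 1 and -0.24 within set 2. Elovl6, the elongase of long-chain fatty acids, lay between 3.62 and 6.95 CPM, with a log2 fold change of -0.01 that changed sign with library size scaling. The near-identical genes Scd3 and Scd4 had at most 1 and 3 counts in a library, and Acat3, the relative of Acat2, 2 to 16 counts.

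The members followed the library sets more than the treatment, to about the extent that other genes did. In 15 of 29 members (51.7%) the 3 libraries of set 1 did not overlap the 3 of set 2, against 47.7% of tested genes. All set 1 libraries were lower for 8 members (27.6%, against 24.4%), namely Hmgcs1, Mvd, Lss, Tm7sf2, Dhcr7, Scap, Insig1 and Stard4. They were all higher for 7 members (24.1%, against 23.4%), namely Fdps, Fdft1, Sqle, Hsd17b7, Acaca, Scd1 and Scd2. Since the sets were found in the same libraries, these differences are a description and were not tested. The difference was over 1.5-fold in the same direction in both treatments for 4 members (13.8%, against 18.6% of tested genes). These were Insig1, with log2 differences of set 1 minus set 2 of -0.84 in control and -1.0 in RA libraries, Dhcr7 (-0.66 and -0.74), Mvd (-0.61 and -0.77) and Scd1 (0.74 and 1.1).

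Signs of the set difference are given by role as counts, small differences included. All 4 regulators and Stard4 were lower in set 1 in both treatments, as were 40% of tested genes. Of the fatty acid genes, 5 of 6 were higher in set 1 in both treatments, against 39.3% of tested genes, and Fasn was the exception. Only 2 of the 4 regulators (Scap and Insig1) and 3 of the 6 fatty acid genes had sets that did not overlap, and the Acly differences were 0.07 and 0.0080. The mevalonate and sterol genes were divided, with 9 lower and 7 higher in set 1 in both treatments. Of the members with CACGTG in the promoter, Dhcr7, Scap and Insig1 were lower in all set 1 libraries, Hsd17b7 was higher in all of them, and Sc5d overlapped.

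**Figure D4:**
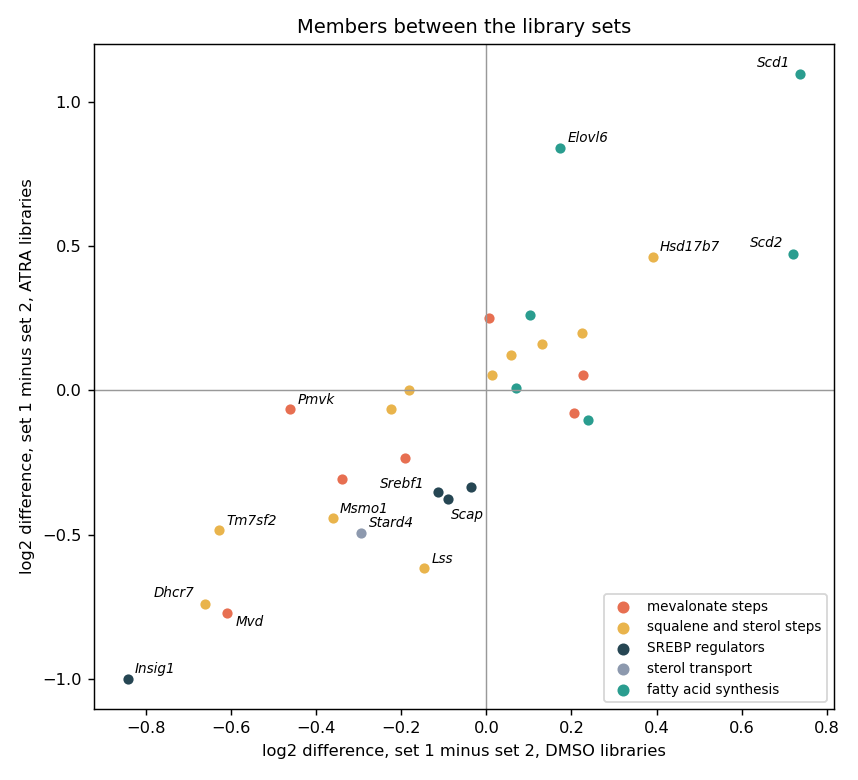
Each point is a member's log2 difference of set 1 minus set 2 among control libraries (horizontal axis) and among RA libraries (vertical axis), coloured by role; single libraries stand for set 1 control and set 2 RA. Insig1, Dhcr7 and Mvd lie at the lower left, with Insig1 at -0.84 and -1.0, and Scd1 lies at the upper right at 0.74 and 1.1.

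Over the 6 libraries, Insig1 moved most closely with the mean log2 CPM of the 18 enzymes of cholesterol synthesis (Pearson's r = 0.92). Stard4 (0.91), Dhcr7 (0.89, against the other 17 enzymes, as for each enzyme here), Hmgcs1 (0.88) and Msmo1 (0.85) followed. The lowest values were those of Hsd17b7 (-0.89), Ebp (-0.89), Scd2 (-0.84) and Sqle (-0.83), so the enzymes of the same route did not move as a block. These values describe 6 libraries that share the split into sets and are given without a test. The mean over these 18 enzymes differed by 0.19 on the log2 scale between its highest and lowest library, and that over the 4 regulators by 0.65.

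Of 25 further genes of the pathway, such as proteases, transporters and cofactors of the SREBPs, 24 were tested. By edgeR 0 were called (0.0433% of tested genes) and 0 had an unadjusted p under 0.05 (5.25%), and DESeq2 called 0 (0.983%). With the library set as a covariate, edgeR called 0 (1.54%), and 2 had an unadjusted p under 0.05 (15.1%), both higher after RA. In the fit without the covariate, the 24 genes had a median log2 fold change of 0.10, with 15 above 0 and 9 below. The smallest p-values above 0 were those of Elovl5, another elongase, with a log2 fold change of 0.29 (edgeR unadjusted p = 0.067), and of Nfyc, a subunit of the CCAAT-binding NF-Y, with 0.37 (edgeR unadjusted p = 0.067). Below 0 they were those of Aacs, the acetoacetyl-CoA synthetase, with -0.32 (edgeR unadjusted p = 0.0932), and Slc25a1, the citrate carrier of mitochondria, with -0.27 (edgeR unadjusted p = 0.122). None of the 4 passed after adjustment (edgeR adjusted p = 0.795 for each). Insig2, the relative of Insig1, had between 459 and 646 counts a library and a log2 fold change of 0.10.

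The LXR receptors sense oxysterols and drive cholesterol efflux, the counterpart of synthesis. All 8 genes of that list were tested. After RA edgeR called 0 (0.0433% of tested genes), 0 had an unadjusted p under 0.05 (5.25%), and DESeq2 called 0 (0.983%). With the library set as a covariate, edgeR called 0 (1.54%) and 1 had an unadjusted p under 0.05 (15.1%). This was Abca1, with a log2 fold change of 0.24 (edgeR unadjusted p = 0.023, adjusted p = 0.262). These genes were not left out when the library sets were found and could help define the split, so their set differences are a description. In 6 of the 8, all set 1 libraries were below all set 2 libraries, against 24.4% of tested genes. Nr1h3, an LXR receptor, went the other way, at 50.7 to 62.8 CPM in set 1 and 36.3 to 46.4 CPM in set 2 (23.4% of tested genes were higher in all set 1 libraries). Apoe, which carries cholesterol out of cells and is named here after its values were seen, lay at 2656, 456 and 3232 CPM in DMSO1, DMSO2 and DMSO3 and at 393, 417 and 3370 CPM in ATRA1, ATRA2 and ATRA3. Abca1, the efflux pump, also named after its values were seen, lay at 666, 389 and 694 CPM in the control libraries and at 414, 468 and 836 CPM in the RA libraries. Both genes were lower in every library of set 1, as were Insig1 and Stard4.

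The summed levels of cell division, adipocyte and endothelial markers were apart between the sets, while those of macrophage and stromal markers overlapped. These genes too were not left out when the sets were found and could help define the split, so the differences are a description. All 20 cell division genes were higher in all set 1 libraries (23.4% of tested genes). Their summed CPM was 866, 1544 and 1789 in DMSO2, ATRA1 and ATRA2 but 330, 344 and 307 in DMSO1, DMSO3 and ATRA3. The 14 macrophage markers summed to 19736 to 20928 CPM in set 1 and 19335 to 21587 CPM in set 2, and 10 of the 14 were lower in all set 1 libraries (24.4% of tested genes). Lyz2 and Fcgr1 were higher in all of them, Lyz2 at 8722 to 9779 CPM against 5543 to 6629 CPM. The 12 stromal markers summed to 4434, 3458 and 2217 CPM in DMSO2, ATRA1 and ATRA2 and to 2306, 2548 and 1688 CPM in DMSO1, DMSO3 and ATRA3, and 4 of the 10 tested were higher in all set 1 libraries (23.4% of tested genes). Of 8 adipocyte markers, Adipoq, Plin1, Cidec and Lep stayed under 1 CPM in every library. The adipocyte sum, mostly Lpl, was 1240 to 1470 CPM in set 1 and 1678 to 1795 CPM in set 2. Neutrophil, erythroid and lymphoid markers summed to at most 4.25, 0.372 and 0.160 CPM in a library, and 5 endothelial markers to 6.81 to 11.4 CPM in set 1 and 16.0 to 17.2 CPM in set 2. Pecam1 was the largest part of the endothelial sum, at 3.24 to 5.90 CPM in set 1 and 12.2 to 13.6 CPM in set 2. Cdh5 and Kdr overlapped between the sets. Of the endothelial markers under 1 CPM in every library, Tek was lower and Emcn higher in all set 1 libraries. The part of cell division, cell types or depth in the members' differences was not tested.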

How the data were processed

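The authors deposited raw counts of reads per gene, 1 table a library, for 3 DMSO and 3 ATRA libraries. The submitters' processing notes name Bowtie2 2.2.3 and mm10. The counting program, annotation and strand setting were not given in the sources used here. Groups and replicate numbers came from sample titles. In the tables, 24 gene names turned into dates were replaced by GENCODE M21 symbols. Totals were 14737636 to 18511905 counts a library. Members had at least 53 counts in every library, and Elovl6, with 53 to 125, carries the largest counting error.

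Counts were analysed in R 4.3.3 with edgeR 4.0.16 (filterByExpr, TMM, glmQLFit and glmQLFTest over all 6 libraries, prior count 2 for log2 CPM). A call needed a Benjamini-Hochberg adjusted p below 0.05 and 1.5-fold or more. Fits were tested on simulated data. DESeq2 1.42.0, other scalings and filters, a replicate block, the library set as a covariate and leaving out each library were alternatives. The members, the gene lists and the tests were chosen with earlier results of these data known. All 29 members are named, and of other lists only those of smallest p on either side of 0 unless stated. Promoter windows were from RefSeq and gene coordinates from GENCODE M21, both GRCm38. Experiments other than RNA sequencing were not used here.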

Additional observations from a re-analysis of the deposited data

How the results depend on the processing

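The count of members called stayed at 0 under all alternatives run, and the median log2 fold change of the members stayed between -0.038 and 0.029. Members at an unadjusted p under 0.05 (edgeR) numbered 2 with the replicate block (Mvd and Srebf1), 4 with the set covariate, 5 without ATRA replicate 3 (Mvd, Lss, Srebf1, Scap and Scd1) and 0 otherwise. The count over all genes was less stable. From 6 (5 higher, 1 lower) it went to 136 (98 and 38) with DESeq2, 213 (103 and 110) with the set covariate, 20 (17 and 3) without a filter and 6 (6 and 0) with library size alone. Leaving out each library gave between 0 (without DMSO replicate 1) and 6 genes (without ATRA replicate 3), with 0 to 6 higher and 0 lower. With the replicate block it was 4 (4 and 0). Deviations of same-numbered libraries correlated at -0.51, 0.343 and 0.572. Correlations of RA with control libraries were positive within a library set and negative between the sets. They therefore cannot decide whether libraries of the same number were paired. ATRA2 correlated best with its own number, DMSO2, but ATRA1 and ATRA3 best with DMSO2 and DMSO1 (0.653 and 0.609).

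Log2 fold changes of several members changed sign, most of them near 0 but also Insig1 (0.24), Scd2 (-0.19), Tm7sf2 (-0.18) and Lss (-0.12). With library size alone, which moved the median of all genes from -0.018 to 0.025, Sqle came to 0.017, Ebp to 0.023, Dhcr7 to 0.0052, Stard4 to 0.012 and Elovl6 to 0.043. With the upper quartile Ebp came to 0.00047 and Elovl6 to 0.018, and Elovl6 to 0.0025 with DESeq2 and 0.0016 with at least 10 counts in every library. With the library set as a covariate Pmvk came to 0.045, Tm7sf2 to 0.016, Dhcr7 to 0.19 and Stard4 to 0.090. Leaving out each library gave -0.18 to 0.048 for Pmvk, -0.097 to 0.068 for Sqle, -0.36 to 0.013 for Lss, -0.065 to 0.038 for Ebp, -0.32 to 0.18 for Dhcr7, -0.21 to 0.084 for Stard4, -0.14 to 0.0074 for Fasn, -0.17 to 0.22 for Elovl6, -0.36 to 0.10 for Scd2 and -0.17 to 0.43 for Insig1. The causes were not tested. The refits of Insig1 with the library set, 0.44 to 0.61, were chosen after seeing the data.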
